A study of Schizosaccharomyces pombe with 16 samples.

Results

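The genes described here are DNA repair and DNA damage checkpoint genes of the fission yeast Schizosaccharomyces pombe. They were taken by name: each probe set with 1 gene symbol in the platform's annotation that begins with rad, rhp, mag, msh, pms, mlh, nth, apn, rqh or crb followed by a number. This gave 43 genes with 1 probe set each, out of 4999 probe sets on the array, of which 2917 carry a single gene name. The 2062 probe sets absent from that annotation could not be searched. By role, 9 are checkpoint genes, 6 act in base excision repair, 10 in nucleotide excision repair, 4 in mismatch repair and 7 in homologous recombination, and 5 act through ubiquitin or SUMO. The remaining 2, rad21 and crb3, have their main role elsewhere: rad21 encodes a subunit of cohesin, which holds sister chromatids together, and crb3 a WD-repeat protein of ribosome assembly. In the RefSeq gene table rad22 is now called rad52, and rad32 is called mre11.

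The arrays compared wild type (L972) with the temperature-sensitive mutant fcp1-452, which carries an altered form of the phosphatase that removes phosphate from the tail of RNA polymerase II. Both strains were in the minimal medium EMM2 with nitrogen (+N) or in EMM2-N without it (-N), at 26 °C or at 37 °C, which makes 8 groups. Wild-type cells with nitrogen and the mutant at 26 °C are called logarithmically growing, and the other groups are called incubated. All arrays carry the same growth note about log phase. No source used here says how long cells were at 37 °C or starved. The mutant is a single strain, and no second mutant strain is among the samples.

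Cells meet damaged DNA with a set of pathways. Base excision repair removes single altered bases through a glycosylase and an endonuclease that cuts at the empty site, nucleotide excision repair cuts out a short stretch around a bulky lesion, and mismatch repair corrects copying errors. Broken chromosomes are joined by homologous recombination, and the ubiquitin pathway of Rhp6 and Rhp18 lets replication pass a lesion. In the checkpoint, the kinase Rad3 with its partner Rad26, a sliding clamp that holds Rad9 and Rad1, the clamp loader Rad17, and the mediators Rad4 and Crb2 hold the cell cycle until repair is done. Without nitrogen, fission yeast stops dividing, mates or becomes quiescent, and then has no replicated sister chromatid to repair from.

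All values are log2 of the deposited ratio and were set to 0 at the mean of the wild-type samples with nitrogen at 26 °C for that gene. They show how a gene differs between samples, not how abundant it is against another gene. Each group with nitrogen held 2 samples, given as replicate 1 then replicate 2, and each starved group held 1. In each group with nitrogen a further array had nearly the same profile as replicate 1 and was averaged into it. The correlation was r = 0.975 to 0.990 across probe sets, after each probe set was centred over the groups with nitrogen. Differences are log2 differences ± SE from limma with the replicate number as a block, fitted over all 4999 probe sets, and a gene is called where the Benjamini-Hochberg adjusted p is under 0.05. Of 6 genes that answer to loss of nitrogen, mei2, isp4, isp5, amt1 and fur4 were higher in each starved sample than in each sample with nitrogen. The sixth, ste11, overlapped: it stood at 1.00 and 0.89 in starved wild type and fcp1-452 at 37 °C, against 0.99 and 0.48 in fcp1-452 at 37 °C with nitrogen. The heat shock gene hsp16 stood at 0.91 and 3.45 in wild type at 37 °C with nitrogen and at 4.62 and 4.78 in fcp1-452 there, so the wild-type samples at 37 °C differed from each other. A second heat shock gene, ssa1, was at -2.61 and -0.20 in wild type at 37 °C, the opposite direction, and at 2.48 and 3.004 in fcp1-452. Neither gene was called in wild type (2.18 ± 0.69, adjusted p = 0.167 for hsp16 and -1.41 ± 0.62, adjusted p = 0.278 for ssa1), and their part in the repair gene results was not tested. The transcript of fcp1 itself was not called between strains at 26 °C (0.00 ± 0.12, adjusted p = 1.0) or at 37 °C (-0.24 ± 0.12, adjusted p = 0.169), which does not test a temperature-sensitive protein.

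**Figure D1:**
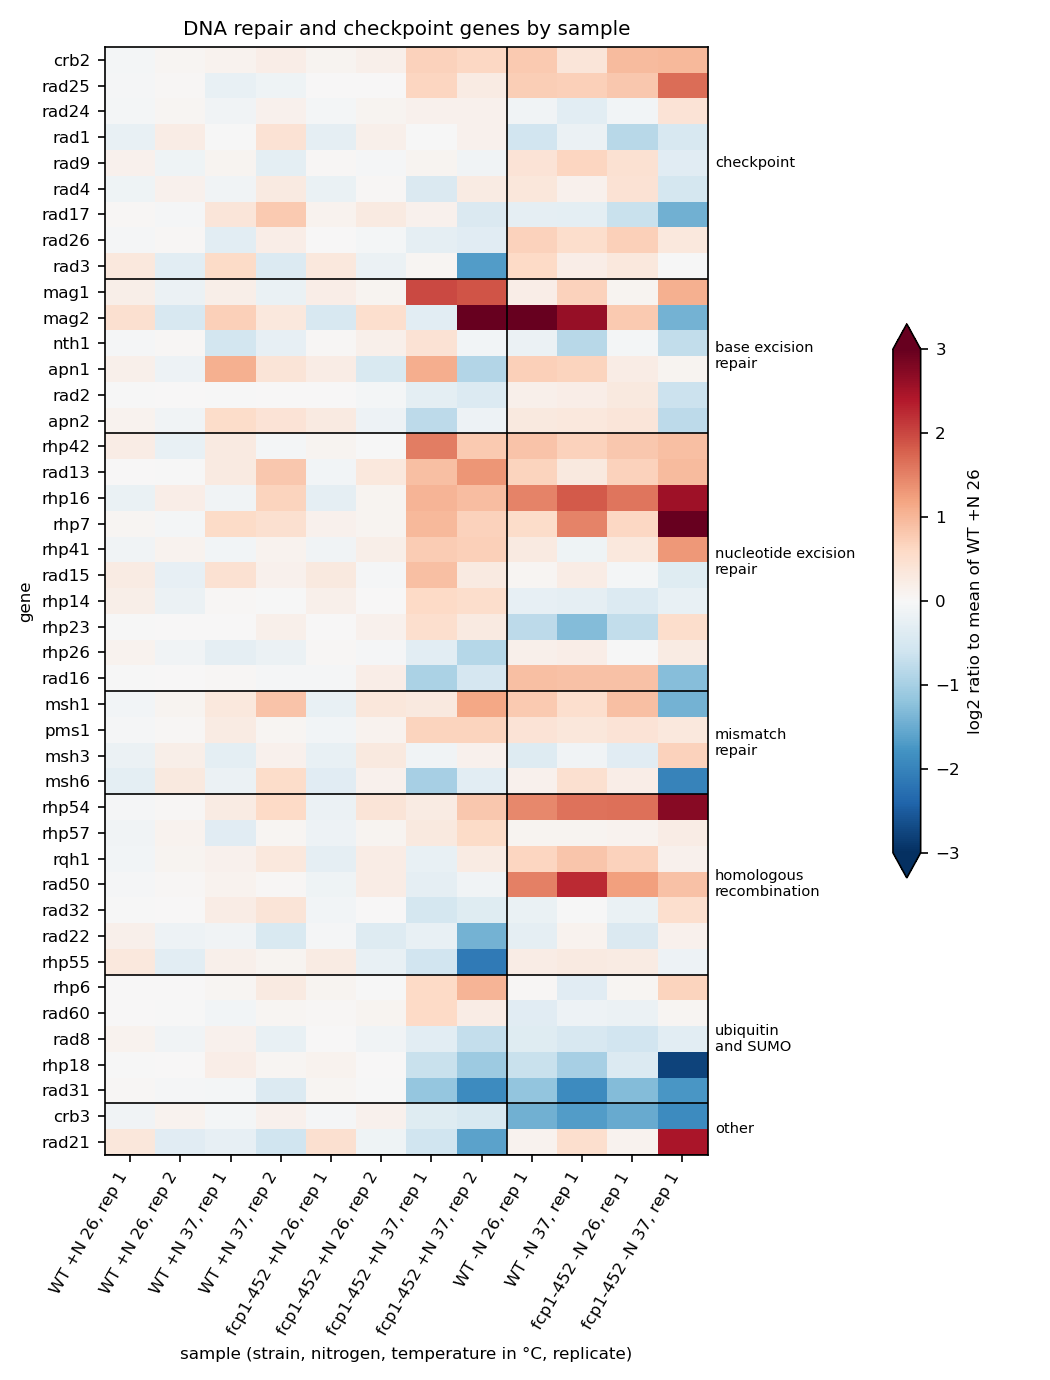
Heat map of the 43 genes (rows, by role) in the 12 samples (columns, by strain, nitrogen, temperature in °C and replicate); colour is the log2 ratio to the mean of the wild-type +N samples at 26 °C, and the scale saturates at 3 in either direction. Colour is concentrated in fcp1-452 at 37 °C and in the starved samples, where rhp7 reached 3.44 in fcp1-452 at 37 °C.

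With nitrogen, wild-type cells at 37 °C showed no called change in these genes. Of the 43, none was called against 0.54% of all probe sets. An unadjusted p under 0.05 was found for 7, or 16.3% against 20.6% of all probe sets, and the limma values ran from -0.42 ± 0.17 for rad21 to 0.73 ± 0.38 for apn1. In nucleotide excision repair, rhp7 had 0.53 ± 0.11, adjusted p = 0.0839 and rad13 0.53 ± 0.15, adjusted p = 0.146. With quantile normalization 3 were called, as were 3 without replicate 1 or without replicate 2 of fcp1-452 at 37 °C, and 1 with 16 arrays and a set term. Nor was a strain difference called at 26 °C: none of the 43 was called, none had an unadjusted p under 0.05, and 0.0% of all probe sets were called by limma. There the values ran from -0.22 ± 0.24 for rad22 to 0.18 ± 0.23 for rad17.

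In fcp1-452 the same shift to 37 °C changed 23 of the 43 genes, 13 up and 10 down, or 53.5% against 39.9% of all probe sets. Risers made up 17.8% of all probe sets and fallers 22.1%. An unadjusted p under 0.05 from limma was found for 28 of the 43 genes, against 7 in wild type, and for 2521 of 4999 probe sets. The adjusted p depends on how many probe sets change in a comparison, so a change of similar size can be called in the mutant and not in wild type. The median over the 43 genes was 0.09, against -0.04 over all probe sets, and the median absolute change 0.49 against 0.38. Of the called genes 3 rose and 3 fell 2-fold or more, or 6 of 43, against 578 of 4999 probe sets (11.6%). Nucleotide excision repair genes rose in 7 of 10, and the ubiquitin and SUMO genes fell in 3 of 5. The plot of the temperature responses shows the mutant values spreading away from the wild-type values at both ends.

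**Figure D2:**
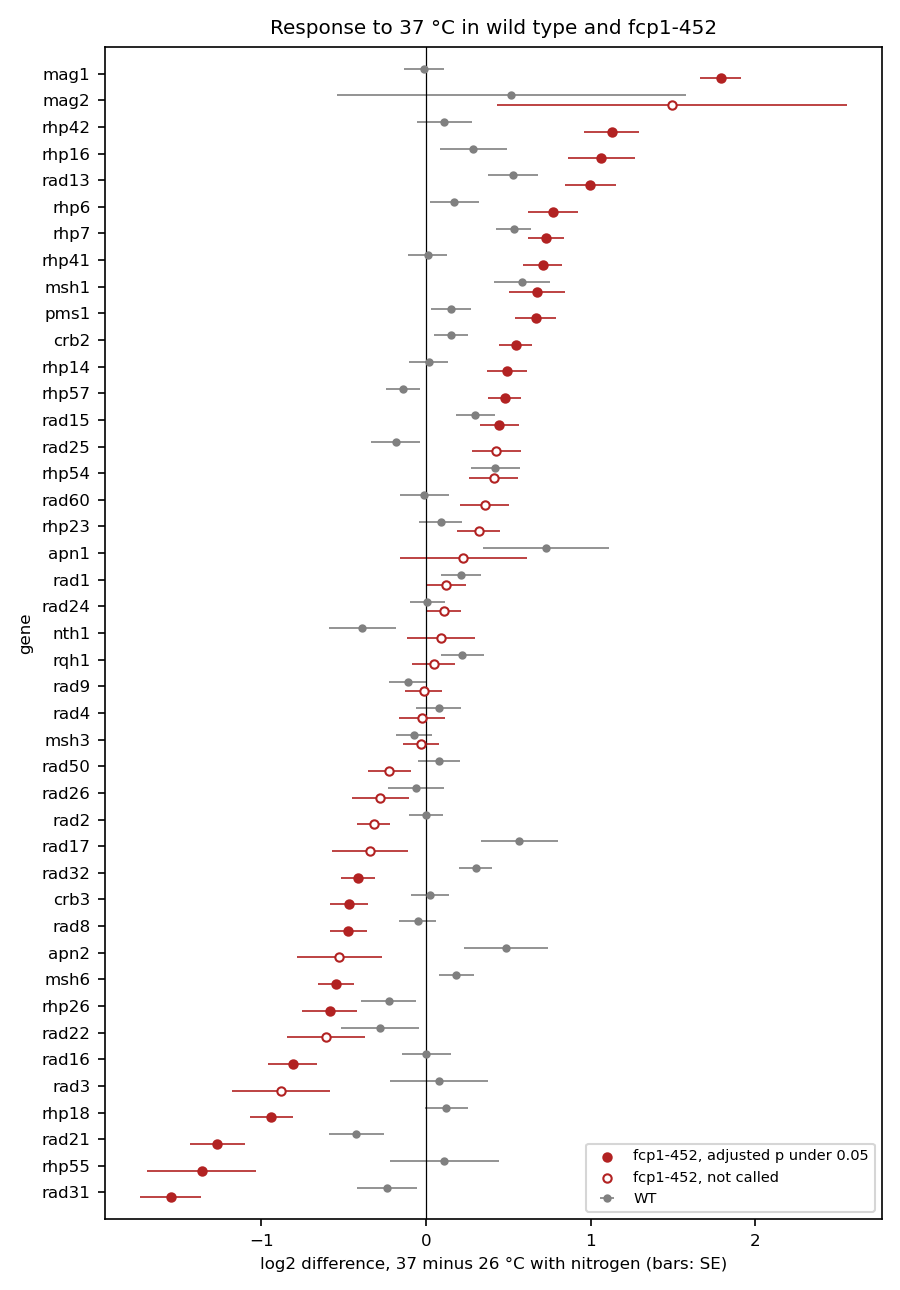
Log2 difference between 37 and 26 °C with nitrogen for each gene (rows, ordered by the value in fcp1-452) in wild type (grey) and in fcp1-452 (red; filled where called, open where not), with bars of 1 SE from limma. The mutant values run from -1.55 ± 0.18 for rad31 to 1.79 ± 0.12 for mag1, and the wide bars of mag2 belong to a gene whose replicates disagreed.

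The largest rise was that of mag1, which encodes a DNA glycosylase that removes alkylated bases such as methyladenine. Its values were 0.17 and -0.17 in wild type at 26 °C, 0.18 and -0.20 in wild type at 37 °C, 0.19 and 0.09 in fcp1-452 at 26 °C and 1.97 and 1.89 in fcp1-452 at 37 °C. Both mutant samples at 37 °C stood far above the other 6 samples with nitrogen, which lay close together. The difference was 1.79 ± 0.12, adjusted p = 0.00122, and it was called under each alternative run, those that left out 1 sample included. The related gene mag2 had replicates far apart. It stood at 0.48 and -0.48 in wild type at 26 °C, 0.71 and 0.32 in wild type at 37 °C, -0.47 and 0.51 in fcp1-452 at 26 °C and -0.33 and 3.35 in fcp1-452 at 37 °C. Its change in the mutant was 1.49 ± 1.06, adjusted p = 0.307, and the high value came from replicate 2 alone. Of the other base excision repair genes none was called here, where 39.9% of all probe sets were called. The endonuclease gene apn2 stood at 0.11 and -0.11 in wild type at 26 °C, 0.56 and 0.41 in wild type at 37 °C, 0.26 and -0.15 in fcp1-452 at 26 °C and -0.80 and -0.15 in fcp1-452 at 37 °C and changed by -0.53 ± 0.26, adjusted p = 0.153. The values of the bifunctional glycosylase nth1 (0.09 ± 0.20, adjusted p = 0.746), of apn1 (0.23 ± 0.38, adjusted p = 0.662) and of the flap endonuclease gene rad2 (-0.32 ± 0.10, adjusted p = 0.0535) did not pass the test.

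In nucleotide excision repair the genes for damage recognition and for cutting did not move as one. The largest rise was that of rhp42, a homologue of the human recognition protein XPC, which stood at 0.23 and -0.23 in wild type at 26 °C, 0.27 and -0.05 in wild type at 37 °C, 0.08 and -0.01 in fcp1-452 at 26 °C and 1.53 and 0.79 in fcp1-452 at 37 °C. Both mutant samples at 37 °C were above all others with nitrogen, although replicate 1 rose further than replicate 2. The change was 1.13 ± 0.17, adjusted p = 0.00535, and its paralogue rhp41 rose by a smaller amount (0.71 ± 0.12, adjusted p = 0.0077). Values of rhp41 were -0.10 and 0.10 in wild type at 26 °C, -0.08 and 0.10 in wild type at 37 °C, -0.11 and 0.18 in fcp1-452 at 26 °C and 0.77 and 0.72 in fcp1-452 at 37 °C, with the 2 mutant samples at 37 °C again highest and near each other.

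The genes rhp16 and rhp7, whose products work as a pair in repair of untranscribed DNA, are next to each other on chromosome III in the RefSeq gene table. Values of rhp16 were -0.19 and 0.19 in wild type at 26 °C, -0.10 and 0.67 in wild type at 37 °C, -0.28 and 0.08 in fcp1-452 at 26 °C and 1.01 and 0.92 in fcp1-452 at 37 °C, and those of rhp7 0.06 and -0.06 in wild type at 26 °C, 0.58 and 0.48 in wild type at 37 °C, 0.13 and 0.07 in fcp1-452 at 26 °C and 0.97 and 0.68 in fcp1-452 at 37 °C. For both genes the mutant samples at 37 °C were the highest with nitrogen. Wild type at 37 °C lay between them and the samples at 26 °C for rhp7, and for rhp16 it did so in replicate 2 only. The rises in the mutant were 1.07 ± 0.20, adjusted p = 0.0113 and 0.73 ± 0.11, adjusted p = 0.00535. The nuclease gene rad13, the XPG homologue, rose by 1.00 ± 0.15, adjusted p = 0.0061, the XPA homologue rhp14 by 0.49 ± 0.12, adjusted p = 0.0231 and the helicase gene rad15 by 0.45 ± 0.12, adjusted p = 0.0301.

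The second nuclease of the pathway went the other way. The XPF homologue rad16 stood at -0.01 and 0.01 in wild type at 26 °C, 0.04 and -0.03 in wild type at 37 °C, -0.03 and 0.21 in fcp1-452 at 26 °C and -0.94 and -0.50 in fcp1-452 at 37 °C, and both mutant samples at 37 °C were the lowest. It fell (-0.81 ± 0.15, adjusted p = 0.01). The gene rhp26, which couples repair to transcription, fell as well (-0.59 ± 0.17, adjusted p = 0.0373). For rhp23, the Rad23 homologue, the samples were -0.02 and 0.02 in wild type at 26 °C, 0.02 and 0.15 in wild type at 37 °C, 0.00 and 0.13 in fcp1-452 at 26 °C and 0.51 and 0.26 in fcp1-452 at 37 °C and the change of 0.32 ± 0.13, adjusted p = 0.103 was not called.

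Homologous recombination held genes of 1 complex that moved apart. Rhp55 and Rhp57 form a dimer that acts in recombination. The samples for rhp55 were 0.32 and -0.32 in wild type at 26 °C, 0.14 and 0.08 in wild type at 37 °C, 0.24 and -0.21 in fcp1-452 at 26 °C and -0.58 and -2.12 in fcp1-452 at 37 °C. Both mutant samples at 37 °C were below the rest, replicate 2 by much more. The change was -1.36 ± 0.33, adjusted p = 0.0235, whereas rhp57 rose (0.48 ± 0.10, adjusted p = 0.0153). Samples of rhp57 were -0.10 and 0.10 in wild type at 26 °C, -0.33 and 0.05 in wild type at 37 °C, -0.16 and 0.07 in fcp1-452 at 26 °C and 0.29 and 0.57 in fcp1-452 at 37 °C. The break-processing nuclease gene rad32 fell (-0.41 ± 0.10, adjusted p = 0.0238), and rad50, of the same complex, was not called (-0.22 ± 0.13, adjusted p = 0.218). The strand annealing gene rad22 (-0.61 ± 0.24, adjusted p = 0.0924), the translocase gene rhp54 (0.41 ± 0.15, adjusted p = 0.0746) and the RecQ helicase gene rqh1 (0.05 ± 0.13, adjusted p = 0.796) did not pass the test.

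Among the ubiquitin and SUMO genes, rad31 showed the largest fall of all 43. It encodes a subunit of the enzyme that activates SUMO, a small protein attached to other proteins, and stood at 0.04 and -0.04 in wild type at 26 °C, -0.06 and -0.42 in wild type at 37 °C, 0.07 and -0.01 in fcp1-452 at 26 °C and -1.15 and -1.89 in fcp1-452 at 37 °C. Both mutant samples at 37 °C were the lowest, and wild type at 37 °C in replicate 2 was lower than the samples at 26 °C. The change was -1.55 ± 0.18, adjusted p = 0.00317 and was called in every alternative run. The ubiquitin ligase gene rhp18 stood at -0.01 and 0.01 in wild type at 26 °C, 0.19 and 0.06 in wild type at 37 °C, 0.10 and 0.01 in fcp1-452 at 26 °C and -0.68 and -1.09 in fcp1-452 at 37 °C and fell (-0.94 ± 0.13, adjusted p = 0.00467). Its partner, the ubiquitin-conjugating enzyme gene rhp6, rose by 0.77 ± 0.15, adjusted p = 0.012, with samples at 0.00 and 0.00 in wild type at 26 °C, 0.07 and 0.27 in wild type at 37 °C, 0.08 and 0.00 in fcp1-452 at 26 °C and 0.59 and 1.03 in fcp1-452 at 37 °C. The ligase gene rad8 fell (-0.47 ± 0.11, adjusted p = 0.0221), and rad60, whose product has SUMO-like domains, was not called (0.36 ± 0.15, adjusted p = 0.107).

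In mismatch repair 3 of 4 genes were called, with changes under 2-fold, where 39.9% of all probe sets were called. The MutS homologue msh6 stood at -0.30 and 0.30 in wild type at 26 °C, -0.18 and 0.55 in wild type at 37 °C, -0.35 and 0.13 in fcp1-452 at 26 °C and -0.99 and -0.32 in fcp1-452 at 37 °C and fell (-0.55 ± 0.11, adjusted p = 0.0122). The mutant samples at 37 °C were the lowest within each replicate, although the replicates were offset. The other MutS homologue called was msh1, with -0.09 and 0.09 in wild type at 26 °C, 0.32 and 0.85 in wild type at 37 °C, -0.23 and 0.33 in fcp1-452 at 26 °C and 0.30 and 1.15 in fcp1-452 at 37 °C and a rise of 0.67 ± 0.17, adjusted p = 0.0259. Its wild-type value was nearly as large and not called (0.58 ± 0.17, adjusted p = 0.147). The MutL homologue pms1 rose (0.67 ± 0.12, adjusted p = 0.0104), and msh3 was not called (-0.03 ± 0.11, adjusted p = 0.832), with samples at -0.17 and 0.17 in wild type at 26 °C, -0.29 and 0.14 in wild type at 37 °C, -0.21 and 0.29 in fcp1-452 at 26 °C and -0.11 and 0.13 in fcp1-452 at 37 °C.

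Of the 9 checkpoint genes, the mediator crb2 was the only one called, with a rise of 0.54 ± 0.10, adjusted p = 0.0107, where 39.9% of all probe sets were called. The kinase gene rad3 had -0.88 ± 0.30, adjusted p = 0.0616. Its samples were 0.33 and -0.33 in wild type at 26 °C, 0.57 and -0.41 in wild type at 37 °C, 0.32 and -0.18 in fcp1-452 at 26 °C and 0.06 and -1.68 in fcp1-452 at 37 °C, and replicate 2 of the mutant at 37 °C was far below the rest. The clamp genes rad9 (-0.02 ± 0.11, adjusted p = 0.923) and rad1 (0.12 ± 0.12, adjusted p = 0.453) and the mediator rad4 (-0.02 ± 0.14, adjusted p = 0.905) were not called. The samples for rad9 were 0.14 and -0.14 in wild type at 26 °C, 0.08 and -0.30 in wild type at 37 °C, 0.04 and -0.03 in fcp1-452 at 26 °C and 0.08 and -0.10 in fcp1-452 at 37 °C. The values of rad17 (-0.34 ± 0.23, adjusted p = 0.289), rad26 (-0.28 ± 0.17, adjusted p = 0.245), and the phosphoserine-binding protein genes rad24 (0.11 ± 0.10, adjusted p = 0.438) and rad25 (0.43 ± 0.15, adjusted p = 0.0674) were not called. Outside the repair roles, rad21 fell (-1.27 ± 0.17, adjusted p = 0.00403), from samples at 0.33 and -0.33 in wild type at 26 °C, -0.26 and -0.59 in wild type at 37 °C, 0.47 and -0.14 in fcp1-452 at 26 °C and -0.60 and -1.60 in fcp1-452 at 37 °C, and crb3 fell (-0.47 ± 0.12, adjusted p = 0.0246), from samples at -0.09 and 0.09 in wild type at 26 °C, -0.07 and 0.12 in wild type at 37 °C, -0.04 and 0.14 in fcp1-452 at 26 °C and -0.37 and -0.46 in fcp1-452 at 37 °C. The mutant samples at 37 °C were the lowest for crb3, and for rad21 they were the lowest within each replicate.

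The 23 calls fell to 6 when the replicate block was dropped and to 9 when both wild-type samples of replicate 2 were left out. Shares of all probe sets are not given for the alternatives, here or elsewhere. A changed count therefore does not tell the repair genes from the whole array. Leaving out replicate 1 or replicate 2 of fcp1-452 at 26 °C gave 6 and 4. The calls for mag1 and rad31 were made in all of the alternatives run.

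Between the strains at 37 °C with nitrogen, 22 of the 43 genes were called, 11 higher and 11 lower in fcp1-452, or 51.2% against 34.0% of all probe sets (14.7% higher and 19.2% lower). This comparison uses the same mutant samples at 37 °C as the one above, so it is no second measurement of them. The gene mag1 was again first, at 1.95 ± 0.12, adjusted p = 0.0017, a fold of 3.85, followed by rhp42 (1.05 ± 0.17, adjusted p = 0.0086) and rhp41 (0.74 ± 0.12, adjusted p = 0.00896). Lower in the mutant were rhp55 (-1.46 ± 0.33, adjusted p = 0.0225), rad31 (-1.29 ± 0.18, adjusted p = 0.00665), rhp18 (-1.01 ± 0.13, adjusted p = 0.00527) and apn2 (-0.96 ± 0.26, adjusted p = 0.0359). Smaller differences were called for rad25 (0.63 ± 0.15, adjusted p = 0.0251) and rad2 (-0.35 ± 0.10, adjusted p = 0.0474). The count was 8 with quantile normalization, 4 with no replicate block and 1 when both wild-type samples of replicate 2 were left out. Leaving out replicate 1 or 2 of wild type at 37 °C gave 4 and 5. The count was 14 without either of wild type at 26 °C and 13 without either of fcp1-452 at 26 °C. The value for mag1 stayed called in each of these.

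An interaction term tested whether the strains responded unequally to 37 °C. It was called for 7 of 43 genes, 16.3% against 11.8% of all probe sets, with 3 more positive (4.12% of all) and 4 more negative (7.68% of all) in fcp1-452. The more positive ones were mag1 (1.80 ± 0.17, adjusted p = 0.0141), rhp42 (1.02 ± 0.24, adjusted p = 0.0482) and rhp57 (0.62 ± 0.14, adjusted p = 0.0485). The more negative ones were rad31 (-1.31 ± 0.26, adjusted p = 0.037), rhp18 (-1.06 ± 0.19, adjusted p = 0.028), msh6 (-0.73 ± 0.15, adjusted p = 0.04) and rad32 (-0.72 ± 0.14, adjusted p = 0.037). For rhp16 (0.78 ± 0.29, adjusted p = 0.13), rhp7 (0.20 ± 0.15, adjusted p = 0.426) and rad13 (0.47 ± 0.22, adjusted p = 0.204), which rose in the mutant, a difference from the wild-type response was not shown. The fall of rhp55 gave a large value with a wide error (-1.48 ± 0.47, adjusted p = 0.0947) and was not called. The count of 7 became 14 with 16 arrays and a set term, a fit that counts the nearly identical arrays as separate samples. It became 0 with no replicate block, with quantile normalization, or when both wild-type samples of replicate 2 were left out. It was 0 without either sample of fcp1-452 or of wild type at 26 °C, 1 and 0 without replicate 1 and 2 of wild type at 37 °C, and 21 and 15 without replicate 1 and 2 of fcp1-452 at 37 °C.

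**Figure D3:**
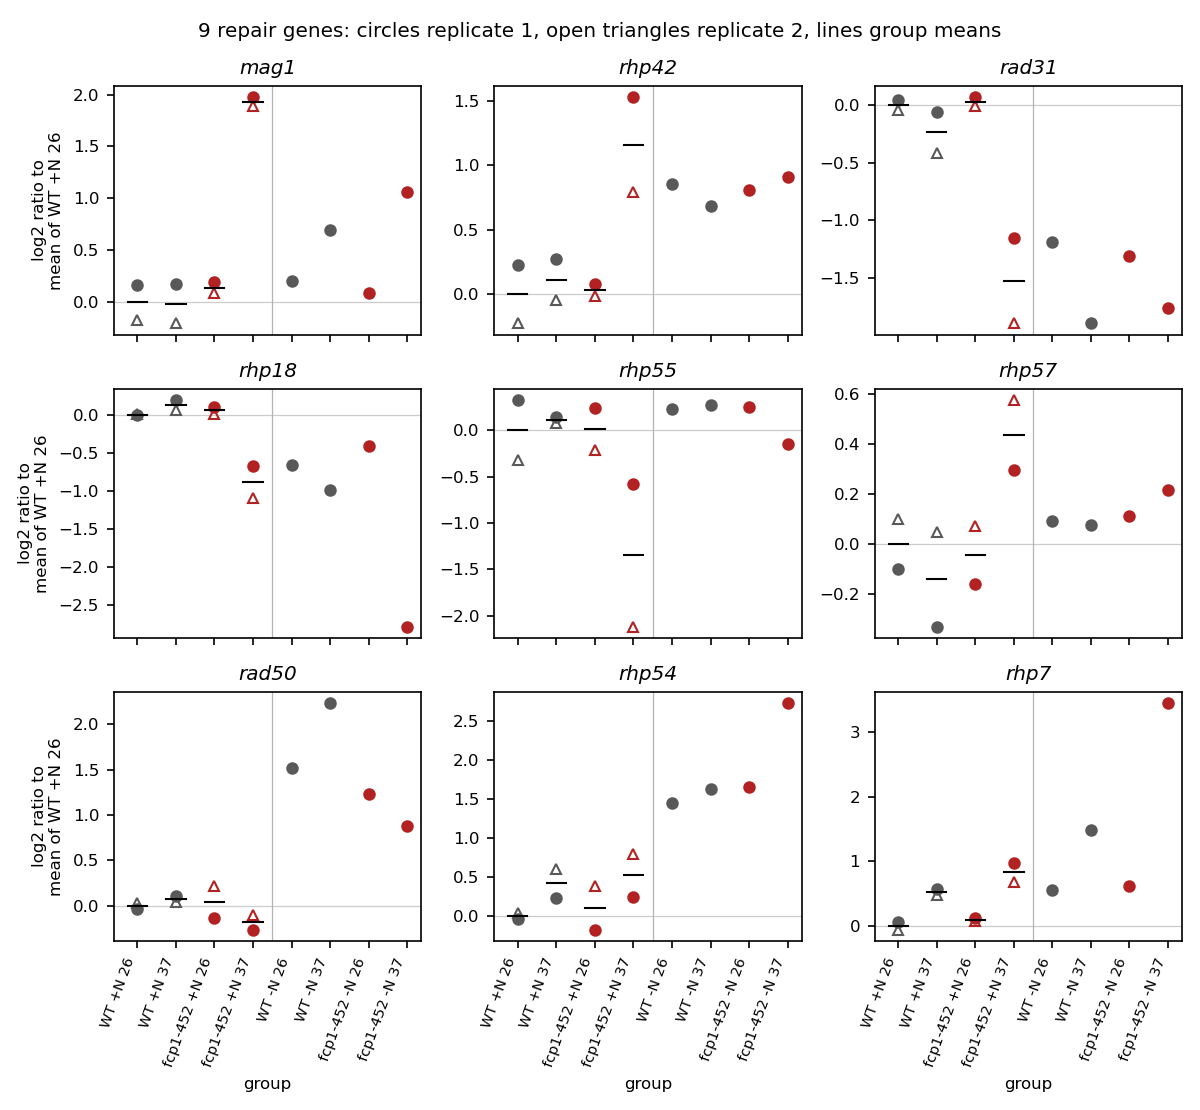
Log2 ratio to the mean of wild type +N at 26 °C (vertical axis) in the 8 groups (horizontal axis; grey wild type, red fcp1-452; filled circles replicate 1, open triangles replicate 2, black lines means of 2 samples) for 9 repair genes. The samples of mag1 in fcp1-452 with nitrogen at 37 °C, at 1.97 and 1.89, stand above all others, and rhp7 and rhp54 are highest, and rhp18 lowest, in starved fcp1-452 at 37 °C.

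Other genes of repair and the checkpoint, 77 measured of 92 listed, changed in 36 cases in the mutant at 37 °C, 18 up and 18 down, or 46.8% against 39.9% of all probe sets. Rises were led by rti1, a paralogue of rad22 (1.74 ± 0.11, adjusted p = 0.000989), and pku70, a subunit of the Ku end-joining complex (1.26 ± 0.13, adjusted p = 0.00224). Falls were led by mik1, a kinase that restrains Cdc2 (-2.06 ± 0.23, adjusted p = 0.00265), and top3, a topoisomerase that works with Rqh1 (-1.26 ± 0.23, adjusted p = 0.00937). Against wild type at 37 °C, 37.7% were called against 34.0% of all probe sets, 8 higher and 21 lower, among the latter the checkpoint effector kinase gene chk1 (-1.63 ± 0.22, adjusted p = 0.00566) and brc1 (-1.25 ± 0.11, adjusted p = 0.00262). The interaction was called for 14 of the 77, 2 more positive and 12 more negative, or 18.2% against 11.8% of all probe sets. Genes of the G1/S wave, which the transcription factor MBF drives at the start of replication, were lower in 17 of 20 cases and higher in 1 in the mutant, 90.0% called against the same 39.9%, with cdt1 at -4.05 ± 0.37, adjusted p = 0.00201 and cdc22 at -3.08 ± 0.22, adjusted p = 0.00127. The lists share 3 genes, ctp1, mik1 and mrc1. A lower share of cells in a cell-cycle phase and less RNA per cell cannot be told apart in these cultures, and the part of the G1/S fall in the repair genes' values was not tested.

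Loss of nitrogen, averaged over both strains and temperatures, changed 25 of the 43 genes, 14 up and 11 down. That is 58.1% against 72.2% of all probe sets, of which 33.9% rose and 38.2% fell. Their median absolute change was 0.38 against 0.56 over all probe sets. Recombination genes rose in 4 of 7 and none of them fell, and ubiquitin and SUMO genes fell in 4 of 5 and none rose. With each starved sample set against replicate 1 with nitrogen of its own strain and temperature, 9 genes were higher and 9 lower in all 4 conditions. Each is 20.9% of the 43 genes, against 27.5% and 31.4% of all probe sets.

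The largest rise was that of rhp54, which encodes a DNA translocase of homologous recombination. Starved samples stood at 1.45 and 1.63 in wild type at 26 and 37 °C, and 1.65 and 2.72 in fcp1-452 at 26 and 37 °C, and samples with nitrogen at -0.04 and 0.04 in wild type at 26 °C, 0.24 and 0.60 in wild type at 37 °C, -0.17 and 0.39 in fcp1-452 at 26 °C and 0.24 and 0.80 in fcp1-452 at 37 °C. All 4 starved samples were above all 8 with nitrogen. The change was 1.80 ± 0.11, adjusted p = 5.92e-05, and 3.48-fold on the linear scale. The break-processing gene rad50 rose as well (1.54 ± 0.09, adjusted p = 5.92e-05). Its starved samples were 1.52 and 2.23 in wild type at 26 and 37 °C, and 1.23 and 0.87 in fcp1-452 at 26 and 37 °C, and with nitrogen it stood at -0.03 and 0.03 in wild type at 26 °C, 0.11 and 0.04 in wild type at 37 °C, -0.13 and 0.21 in fcp1-452 at 26 °C and -0.26 and -0.10 in fcp1-452 at 37 °C. No sample overlapped between the conditions. Its complex partner rad32 had 0.13 ± 0.07, adjusted p = 0.162, with starved samples at -0.19 and -0.01 in wild type at 26 and 37 °C, and -0.19 and 0.49 in fcp1-452 at 26 and 37 °C, and was not called. The helicase gene rqh1 rose by 0.69 ± 0.09, adjusted p = 0.00104 and rhp57 by 0.20 ± 0.07, adjusted p = 0.048, and rhp55 had 0.12 ± 0.23, adjusted p = 0.657, from starved samples at 0.23 and 0.28 in wild type at 26 and 37 °C, and 0.26 and -0.14 in fcp1-452 at 26 and 37 °C.

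In nucleotide excision repair 5 of 10 genes rose and 3 fell, where 33.9% of all probe sets rose and 38.2% fell. The neighbours rhp16 (1.76 ± 0.14, adjusted p = 0.000156) and rhp7 (1.09 ± 0.08, adjusted p = 9.35e-05) led. Starved samples of rhp16 stood at 1.48 and 1.84 in wild type at 26 and 37 °C, and 1.61 and 2.54 in fcp1-452 at 26 and 37 °C, all above the samples with nitrogen, and those of rhp7 at 0.56 and 1.49 in wild type at 26 and 37 °C, and 0.62 and 3.44 in fcp1-452 at 26 and 37 °C, where fcp1-452 at 37 °C was far above the other 3. The nuclease gene rad16 rose by 0.59 ± 0.10, adjusted p = 0.00336, although its starved samples were 0.91 and 0.89 in wild type at 26 and 37 °C, and 0.88 and -1.27 in fcp1-452 at 26 and 37 °C, which puts fcp1-452 at 37 °C below the level with nitrogen. The values of rhp41 (0.32 ± 0.08, adjusted p = 0.0156) and rad13 (0.38 ± 0.11, adjusted p = 0.0213) were smaller rises, and rhp42, not called (0.29 ± 0.12, adjusted p = 0.0691), stood at 0.85 and 0.68 in wild type at 26 and 37 °C, and 0.81 and 0.91 in fcp1-452 at 26 and 37 °C. Falls were those of rhp23 (-0.70 ± 0.09, adjusted p = 0.000964), with -0.78 and -1.30 in wild type at 26 and 37 °C, and -0.75 and 0.52 in fcp1-452 at 26 and 37 °C, of rhp14 (-0.53 ± 0.08, adjusted p = 0.00202) and of rad15 (-0.51 ± 0.08, adjusted p = 0.00241).

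The falls were led by crb3, the gene of ribosome assembly (-1.49 ± 0.08, adjusted p = 5.05e-05), with starved samples at -1.44 and -1.67 in wild type at 26 and 37 °C, and -1.52 and -1.88 in fcp1-452 at 26 and 37 °C. All 4 were below all samples with nitrogen. Next were rad31 (-1.26 ± 0.13, adjusted p = 0.000367), at -1.19 and -1.89 in wild type at 26 and 37 °C, and -1.31 and -1.75 in fcp1-452 at 26 and 37 °C, and rhp18 (-1.11 ± 0.09, adjusted p = 0.000166), at -0.66 and -0.99 in wild type at 26 and 37 °C, and -0.41 and -2.78 in fcp1-452 at 26 and 37 °C. For rad31 the starved samples lay close to the mutant samples at 37 °C with nitrogen. The genes rad8 (-0.42 ± 0.08, adjusted p = 0.00427) and rad60 (-0.30 ± 0.11, adjusted p = 0.042) fell slightly, and rhp6 was not called (-0.08 ± 0.11, adjusted p = 0.526).

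Of the checkpoint genes, 4 of 9 were higher and 2 lower, where 33.9% of all probe sets rose and 38.2% fell. The risers were rad25 (0.88 ± 0.11, adjusted p = 0.00064), the kinase partner rad26 (0.71 ± 0.12, adjusted p = 0.00284), crb2 (0.56 ± 0.07, adjusted p = 0.000904) and rad4 (0.31 ± 0.10, adjusted p = 0.0295), and the fallers were the clamp loader gene rad17 (-0.82 ± 0.16, adjusted p = 0.00529) and the clamp gene rad1 (-0.38 ± 0.09, adjusted p = 0.00872), whose value turned to 0.16 with quantile normalization. Values of rad9 (0.21 ± 0.08, adjusted p = 0.0593) and rad3 (-0.04 ± 0.21, adjusted p = 0.859) did not pass. Starved samples of rad9 stood at 0.42 and 0.64 in wild type at 26 and 37 °C, and 0.45 and -0.34 in fcp1-452 at 26 and 37 °C. The third clamp gene, hus1, is outside the name rule and fell (-2.25 ± 0.10, adjusted p = 3.51e-05). No mismatch repair gene was called, with msh6 at 0.16 ± 0.08, adjusted p = 0.106, msh1 at 0.12 ± 0.12, adjusted p = 0.419 and msh3 at 0.15 ± 0.08, adjusted p = 0.124. In base excision repair only nth1 of 6 genes was called, against the same 72.2%, and it fell (-0.42 ± 0.14, adjusted p = 0.0405). The values of mag1 (-0.12 ± 0.09, adjusted p = 0.27) and apn2 (0.01 ± 0.18, adjusted p = 0.953) did not pass. The starved samples of mag2 were 3.55 and 2.60 in wild type at 26 and 37 °C, and 0.78 and -1.43 in fcp1-452 at 26 and 37 °C, and its value of 1.28 ± 0.75, adjusted p = 0.174 was not called. The cohesin gene rad21 was called higher (0.80 ± 0.12, adjusted p = 0.00152), but its value was -0.029 with quantile normalization. Its starved samples were 0.10 and 0.51 in wild type at 26 and 37 °C, and 0.11 and 2.44 in fcp1-452 at 26 and 37 °C, 1 of them far above the other 3.

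Of the 77 other repair and checkpoint genes 55 were called on starvation, 27 up and 28 down, or 71.4% against 72.2% of all probe sets, led by hus1, rev7, a subunit of a lesion-bypass polymerase (2.20 ± 0.10, adjusted p = 3.52e-05), and dcc1, of a clamp loader (-2.00 ± 0.08, adjusted p = 2.99e-05). Of the G1/S wave genes 6 of 20 were higher and 10 lower, or 80.0% against the same 72.2%. The largest change among them was the fall of cdb4 (-1.91 ± 0.10, adjusted p = 4.31e-05), and the end-resection gene ctp1 was higher (1.40 ± 0.15, adjusted p = 0.000425). The count of 25 repair genes became 13 with quantile normalization and lay between 19 and 29 when 1 sample was left out. Calls for crb3, rad31, rad50, rhp16, rhp18, rhp54, rhp7 and rqh1 were made in every alternative run.

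The starved sample of fcp1-452 at 37 °C stood apart from the other 3 starved samples. For 21 of the 43 genes it was the highest of the 4 and for 19 the lowest, and for 10 genes it lay 1 or more outside the range of the others on the log2 scale. This was true of the array as a whole: the sample was highest at 44.4% and lowest at 42.5% of all probe sets, and 25.6% lay 1 or more outside the range, against 23.3% of the repair genes. Its hsp16 value was 4.96, against 2.19, 1.93 and 2.17 in the other starved samples in the order used above. It is a single array, so each difference that follows takes its error from the samples with nitrogen and assumes that starved samples vary alike.

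**Figure D4:**
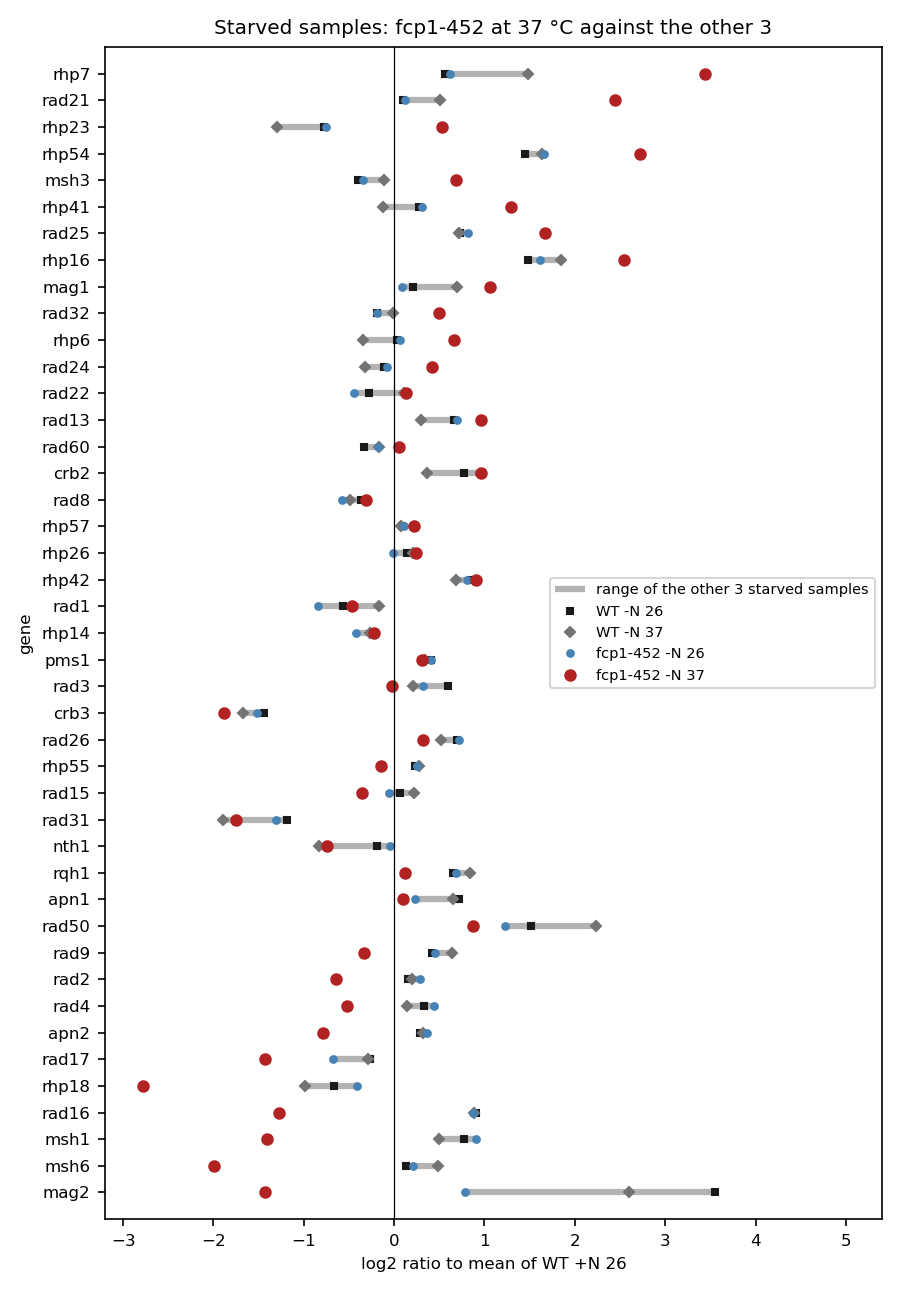
Log2 ratio to the mean of wild type +N at 26 °C (horizontal axis) of each gene (rows) in the 4 starved samples: black squares and grey diamonds are wild type at 26 and 37 °C, blue circles fcp1-452 at 26 °C and red circles fcp1-452 at 37 °C, and grey bars span the other 3 samples. The red circles run from -2.78 for rhp18 to 3.44 for rhp7 and leave the grey bars at both ends.

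Between the starved wild-type samples at 37 and 26 °C, 1 array each, 1 of the 43 genes was called, rhp7 (0.93 ± 0.15, adjusted p = 0.0434), against 3.1% of all probe sets. With no replicate of either array, this is a difference between 2 samples and not a measured response of the strain. The call was lost with no replicate block, with quantile normalization, when both wild-type samples of replicate 2 were left out, and without any 1 of the samples with nitrogen other than fcp1-452 at 37 °C, and 4 genes were called without either of those. Between the starved fcp1-452 samples, also 1 array each, 20 were called, 11 higher and 9 lower at 37 °C, or 46.5% against 56.9% of all probe sets (29.5% up and 27.4% down). A temperature difference that was unequal between the strains was called for 13 genes, 6 more positive and 7 more negative in the mutant. That is 30.2% against 34.1% of all probe sets (17.1% and 16.9%). These 3 comparisons were chosen after the values had been seen. With quantile normalization none of the 43 was called in the mutant or in the interaction. With no replicate block the 20 calls became 9 and the 13 became 4. With both wild-type samples of replicate 2 left out they became 13 and 7. Without replicate 1 or without replicate 2 of fcp1-452 with nitrogen at 37 °C the interaction count was 21.

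Between the starved mutant samples at 26 and 37 °C, rhp7 rose most (2.82 ± 0.15, adjusted p = 0.000407), from 0.62 to 3.44. This exceeded the difference between the starved wild-type samples by 1.90 ± 0.22, adjusted p = 0.00443. The cohesin gene rad21 rose from 0.11 to 2.44 (2.33 ± 0.24, adjusted p = 0.000965), opposite in sign to its fall in the mutant with nitrogen. Rises were also called for rhp23 (1.27 ± 0.19, adjusted p = 0.00286), rhp54 (1.07 ± 0.21, adjusted p = 0.00801), msh3 (1.02 ± 0.16, adjusted p = 0.00323), rhp41 (0.98 ± 0.17, adjusted p = 0.00491) and mag1 (0.97 ± 0.17, adjusted p = 0.00559). Starved samples of rhp41 were 0.28 and -0.13 in wild type at 26 and 37 °C, and 0.31 and 1.29 in fcp1-452 at 26 and 37 °C, and those of msh3 were -0.39 and -0.11 in wild type at 26 and 37 °C, and -0.34 and 0.68 in fcp1-452 at 26 and 37 °C. For mag1 they were 0.21 and 0.70 in wild type at 26 and 37 °C, and 0.09 and 1.06 in fcp1-452 at 26 and 37 °C. The mutant sample at 37 °C was the highest in all 3 genes, and the mag1 value was below that in the mutant at 37 °C with nitrogen. The interaction was not called for mag1 (0.48 ± 0.25, adjusted p = 0.176).

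The largest falls were those of rhp18 (-2.37 ± 0.19, adjusted p = 0.000578), msh1 (-2.31 ± 0.24, adjusted p = 0.000991), msh6 (-2.20 ± 0.15, adjusted p = 0.00051) and rad16 (-2.15 ± 0.21, adjusted p = 0.000886). Starved samples of msh1 stood at 0.77 and 0.50 in wild type at 26 and 37 °C, and 0.90 and -1.41 in fcp1-452 at 26 and 37 °C, and those of msh6 at 0.13 and 0.48 in wild type at 26 and 37 °C, and 0.20 and -2.00 in fcp1-452 at 26 and 37 °C. In both, as for rad16, the 3 other starved samples lay close together and the mutant at 37 °C was below the other 11 samples. For msh6, rad16 and rhp18 this was the same direction as with nitrogen, and for msh1 the opposite one. The interaction was called for all 4 genes, from -2.55 ± 0.22 for msh6 to -2.04 ± 0.34 for msh1. Smaller falls were called for apn2 (-1.15 ± 0.36, adjusted p = 0.0382), with starved samples at 0.29 and 0.32 in wild type at 26 and 37 °C, and 0.36 and -0.79 in fcp1-452 at 26 and 37 °C, and for the checkpoint genes rad4 (-0.96 ± 0.20, adjusted p = 0.00895) and rad9 (-0.79 ± 0.16, adjusted p = 0.00902). Of the 77 other repair and checkpoint genes 19 were higher and 35 lower here, 70.1% against 56.9% of all probe sets, with wee1, a kinase that restrains Cdc2, at 3.06 ± 0.26, adjusted p = 0.00065 and dcc1 at -3.01 ± 0.16, adjusted p = 0.000407.

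The averages over starved samples carry this 1 array. Over both temperatures, 18 genes differed between the starved strains, 10 higher and 8 lower in fcp1-452, or 41.9% against 37.4% of all probe sets (18.8% and 18.6%). Between starved cells of the strains at 26 °C, however, 1 of 43 genes differed 2-fold or more, mag2, and the median absolute difference was 0.11, against 0.66 at 37 °C. The array as a whole was alike: 0.46% of all probe sets differed 2-fold or more at 26 °C, and the medians were 0.10 and 0.72. Over both strains, 16 genes differed between the temperatures, 8 up and 8 down, 37.2% against 46.1% (24.3% and 21.8%). The interaction of strain and nitrogen was called for 9, 4 more positive and 5 more negative, 20.9% against 17.4% (8.84% and 8.54%), with rad21 (1.23 ± 0.21, adjusted p = 0.0214) and msh1 (-0.99 ± 0.21, adjusted p = 0.033) the largest of those called. With quantile normalization each of these 3 counts was 0, and with no replicate block they were 4, 3 and 0. With both wild-type samples of replicate 2 left out they were 8, 7 and 0. Leaving out 1 sample of wild type at 26 °C gave 10, 12 and 0, and 1 of fcp1-452 at 26 °C gave 10, 10 and 0. Without replicate 1 or 2 of wild type at 37 °C the last count was 1 or 0, and without those of fcp1-452 at 37 °C it was 18 or 16.

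Over all comparisons, 39 of the 43 genes were called at least once, 90.7% against 92.3% of all probe sets. The 4 never called were rad3, rad22, apn1 and mag2. Among them, the temperature effect in the mutant had its widest error for mag2 (1.49 ± 1.06), against -0.88 ± 0.30 for rad3, -0.61 ± 0.24 for rad22 and 0.23 ± 0.38 for apn1. In that comparison a 2-fold change in mag2 would lie within 1 SE. On starvation the SE of mag2 was 0.75. Between the starved strains mag2 differed by -3.40 ± 1.06, a large value that was not called. The smallest change called was that of rhp57 on starvation.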

How the data were processed

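Messenger RNA selected by its poly(A) tail was labelled with biotin and measured by the Affymetrix procedure, as the labels state. The values the authors deposited are linear ratios. Per the submitters' processing notes the tool was RMA, an averaging method for probe signals. In the file, each probe set has a median of 1 (0.9998 to 1.00025) over the 8 arrays of each set, so no level is kept, and values within an array are relative to the other mRNAs, so a change in total mRNA per cell would not show. Depth does not apply to arrays, and signal over background is unknown from ratios. The number of samples limits the precision.

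Each of the 8 groups had 1 array in set 1, while set 2 was made of the 4 groups with nitrogen, in replicates 1 and 2. To compare the sets, arrays with nitrogen were centred per probe set over the groups, within set 1 and within each replicate of set 2. Set 1 arrays then differed from replicate 1 of set 2 by an SD of 0.0572 to 0.0742 (log2), against 0.214 to 0.381 from replicate 2. Each pair of a set 1 and a replicate 1 array was therefore counted as 1 sample after set 1 was shifted per probe set onto set 2. This left 12 samples. No label states separate cultures for the replicates. The p-values therefore measure only how these samples spread, which may be technical. The replicate number pairs the samples: the difference of replicates 1 and 2 correlated between groups at r = 0.640 to 0.870 in the 6 pairs of groups. Pairs with fcp1-452 at 37 °C gave 0.640 to 0.691 and the others 0.792 to 0.870. The SD of set 1 from replicate 2 was also largest in that group, 0.381 against 0.214 to 0.247. The fit used 1 spread per probe set for all groups, so its errors may be too small for fcp1-452 at 37 °C and too large for the others. The log2 ratios entered limma 3.58.1 (R 4.3.3) (8 group means and the replicate block, 3 residual and 2.75 prior degrees of freedom), with Benjamini-Hochberg adjustment over 4999 probe sets. The titles of the starved arrays give no replicate number. These arrays were counted as replicate 1, which is an assumption, and their tests borrow the spread of the others. The fitting code was tested on simulated data.

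Names came from the platform annotation, updated through the RefSeq gene table of ASM294v3, which held all 43 genes and renames 5. Genes called at 2-fold or more in any comparison, 19 in all, are given with each sample. The members, the lists (other repair and checkpoint genes, G1/S wave genes and genes that check the conditions) and the design were chosen with earlier results of these data known. Of the lists, at most 4 called genes per comparison are named. Alternatives were no replicate block, 16 arrays with a set term, quantile normalization, robust eBayes, leaving out single samples or the wild-type samples of replicate 2, and leaving out rad21, rad24 and rad25.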

Additional observations from a re-analysis of the deposited data

Results flagged for a closer look

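The following tests of a difference between strains or conditions passed in limma, with log2 difference ± SE. The response to 37 °C with nitrogen differed between fcp1-452 and wild type for mag1 (1.80 ± 0.17), rhp42 (1.02 ± 0.24), rhp57 (0.62 ± 0.14), rad32 (-0.72 ± 0.14), msh6 (-0.73 ± 0.15), rhp18 (-1.06 ± 0.19) and rad31 (-1.31 ± 0.26). None of these was called with no replicate block or with quantile normalization.

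Without nitrogen, where 1 array stood for each group, the response to 37 °C was more positive in fcp1-452 for rad21 (1.92 ± 0.34), rhp7 (1.90 ± 0.22), rhp23 (1.79 ± 0.26), rhp41 (1.38 ± 0.24), msh3 (0.74 ± 0.22) and rad24 (0.71 ± 0.21). It was more negative for msh6 (-2.55 ± 0.22), rad16 (-2.13 ± 0.30), rhp18 (-2.04 ± 0.26), msh1 (-2.04 ± 0.34), rad50 (-1.07 ± 0.26), rad9 (-1.01 ± 0.23) and rad2 (-0.98 ± 0.20). With quantile normalization none of these differences was called.

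The response to starvation, averaged over temperatures, was more positive in fcp1-452 for rad21 (1.23 ± 0.21), rhp7 (0.81 ± 0.13), rhp23 (0.75 ± 0.16) and rad32 (0.64 ± 0.12), and more negative for msh1 (-0.99 ± 0.21), mag1 (-0.92 ± 0.15), rad16 (-0.78 ± 0.18), msh6 (-0.73 ± 0.13, but 0.14 with quantile normalization) and rad50 (-0.71 ± 0.16). These calls too were all lost with no replicate block and with quantile normalization. All starvation values for fcp1-452 at 37 °C rest on a single array, and no group had enough samples for a test of a single far value.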

How the results depend on the processing

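Of 154 calls of single repair genes in the 12 comparisons, 11 kept their direction and their side of the threshold in every alternative. Robust eBayes changed 3 of the 154 and 16 arrays with a set term 23, whereas the fit without the replicate block lost 106, quantile normalization 118 with 3 reversed, and leaving out both wild-type samples of replicate 2 lost 91. The cause was not tested. No share of all probe sets is given for an alternative, so these losses may or may not be those of the whole array. Numbers of called genes, in the order: wild type and fcp1-452 at 37 against 26 °C with nitrogen, strains at 37 °C, interaction, starvation, strain by nitrogen, starved strains, starved temperatures, starved wild type, starved fcp1-452 and the starved interaction, were 0, 23, 22, 7, 25, 9, 18, 16, 1, 20 and 13. Without the replicate block they were 0, 6, 4, 0, 18, 0, 4, 3, 0, 9 and 4, and with quantile normalization 3, 16, 8, 0, 13, 0, 0, 0, 0, 0 and 0. With both wild-type samples of replicate 2 left out they were 0, 9, 1, 0, 20, 0, 8, 7, 0, 13 and 7. With 16 arrays they were 1, 25, 26, 14, 23, 6, 15, 13, 1, 19 and 12. Leaving out 1 sample gave ranges of 0 to 3, 4 to 27, 4 to 28, 0 to 21, 19 to 29, 0 to 18, 10 to 26, 10 to 23, 0 to 4, 16 to 28 and 9 to 21. The strains at 26 °C gave 0 in each. Values reversed by quantile normalization were rad1 (0.16) and rad21 (-0.029) on starvation and msh6 for strain by nitrogen (0.14). Leaving out rad21, rad24 and rad25 moved no count by over 1.5 times. Of a sample left out of a group of 2, the other was assumed to vary like the rest.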
